A study of Mus musculus with 9 samples.

Results

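Leukocyte adhesion molecules and integrins are described here by 8 genes, Icam1, Vcam1, Selp, Sele, Selplg, Itga4, Itgal and Itgb2, chosen by name from the 47643 genes of the count matrix. All 8 were found. The rule that names them uses no measured value, although earlier results of these data were known when they were chosen. Hippocampal RNA was sequenced in 9 libraries, 3 from MRL/mpj mice, 3 from MRL/lpr mice and 3 from MRL/lpr mice treated with mesenchymal stem cells (MRL/lpr+MSC). The lpr mutation, which the mice of both MRL/lpr groups carry, hits the death receptor gene Fas on the MRL background and leads to a lupus-like disease, and MRL/mpj served as the control strain. The labels give post natal week 6 for every library, call the MRL/mpj and MRL/lpr libraries untreated and name C57BL/6 as the strain throughout, although the paper describes MRL strains. The paper does not describe the MSC treatment, and the series title gives PBS or MSC for the MRL/lpr mice. Mice were perfused with PBS before dissection, and each library holds the RNA of all cell types of the dissected tissue.

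White blood cells leave the blood in steps. P-selectin (Selp) and E-selectin (Sele) on activated endothelium catch the glycoprotein PSGL-1 (Selplg) on rolling leukocytes. The integrins LFA-1, a pair of the alpha chain Itgal and the beta chain Itgb2, and VLA-4, which holds the alpha chain Itga4, then bind ICAM-1 (Icam1) and VCAM-1 (Vcam1) for firm arrest. In healthy brain the endothelium holds little of these selectins and ligands, microglia carry Itgb2 and Selplg, and T cells are the typical source of Itgal. Icam1, Vcam1 and Sele are classical targets of NF-kB, a transcription factor of inflammation.

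The genes lie on 7 chromosomes of GRCm38. Selp is on chromosome 1 (164115264 to 164150026, + strand), beside Sele (164048234 to 164057677, + strand). Itga4 is on chromosome 2 (79255426 to 79333123, + strand), Vcam1 on chromosome 3 (116109949 to 116129688, - strand) and Selplg on chromosome 5 (113818536 to 113832644, - strand). Itgal is on chromosome 7 (127296260 to 127335138, + strand), Icam1 on chromosome 9 (21015985 to 21028817, + strand) and Itgb2 on chromosome 10 (77530252 to 77565708, + strand). The annotation places opposite-strand genes over Icam1, Vcam1, Selp and Itga4, and whether the counting used strand is not given in the sources used here. Cerkl, which overlaps Itga4, had 19 to 78 counts per library. The genes over Vcam1 and Selp had at most 4 counts in any library.

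Promoter sequence from RefSeq (GRCm38.p6, 250 bases before to 50 after the start site) was matched for 4 of the 8 genes, Icam1, Selp, Sele and Itga4. The Icam1 and Sele windows are shown because both genes encode endothelial molecules known as NF-kB targets and because their levels here lay far apart. Capitals mark matches, on either strand, to GGAANTTCC (an NF-kB pattern).
Icam1 (chr9:21015690-21015989, + strand): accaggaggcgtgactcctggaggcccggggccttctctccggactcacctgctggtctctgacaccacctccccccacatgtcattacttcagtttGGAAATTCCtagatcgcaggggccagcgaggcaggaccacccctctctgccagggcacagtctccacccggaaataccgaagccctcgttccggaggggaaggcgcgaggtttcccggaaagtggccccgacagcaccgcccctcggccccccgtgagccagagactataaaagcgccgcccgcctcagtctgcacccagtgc
Sele (chr1:164047984-164048283, + strand): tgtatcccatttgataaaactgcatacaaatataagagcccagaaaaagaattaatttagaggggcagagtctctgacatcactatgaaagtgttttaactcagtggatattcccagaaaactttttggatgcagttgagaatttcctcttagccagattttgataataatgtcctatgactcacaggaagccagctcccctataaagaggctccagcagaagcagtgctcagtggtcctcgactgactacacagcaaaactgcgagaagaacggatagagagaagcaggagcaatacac
Icam1 had 1 match to GGAANTTCC, starting 153 bases before the start site. Selp, Sele and Itga4 had no match to it in their windows. Of 32851 promoters of the same length, 0.928% held GGAANTTCC. The classical NF-kB consensus (in 4.79% of promoters) and the interferon response core (in 3.44%) were searched in the same way and were in none of the 4 windows, while GAGGAA (PU.1, in 28.3%) was in that of Sele. A match is a description of the letters and not a binding site. The lack of a match to these fixed patterns does not show that a window, such as that of Sele, holds no NF-kB site.

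Before the results, some facts of the series bear on them. Total counts ranged from 19475804 to 26912031 per library, so that 3 counts, the most that a count of 0 allows for counting error, correspond to 0.105 to 0.163 CPM (counts scaled to library size by TMM). Fas had 1.63 to 1.999 CPM in the MRL/mpj libraries, 1.34 to 2.28 in MRL/lpr and 0.986 to 1.81 in MRL/lpr+MSC libraries, so its total count did not separate the labelled groups. In an expression table that accompanies the paper, the 3 columns named MRL/lpr equalled the MRL/lpr+MSC libraries times a constant at 100% of genes, and any other library reached at most 1.01%. Groups follow the deposited labels throughout. If the labels of these groups were exchanged, the comparisons with MRL/mpj would trade places and the sign of MRL/lpr+MSC against MRL/lpr would turn. Which of the labels and the table is right was not settled here. The summed CPM of 7 choroid plexus genes ran from 104 to 9695 over the libraries, with MRL/lpr 2 (9695) and MRL/lpr+MSC 2 (4878) far above the others, and that of 6 thalamic neuron genes from 126 to 408. Summed over 8 hippocampal neuron genes, CPM was 1147 to 1432 in MRL/mpj libraries. It was 772 to 1081 in MRL/lpr and 784 to 1038 in MRL/lpr+MSC libraries, below every MRL/mpj library. Red cell genes (5) summed to 58.5 to 165.5 CPM in MRL/mpj, 52.7 to 102 in MRL/lpr and 27.8 to 150 in MRL/lpr+MSC libraries. The highest were MRL/mpj 1 and MRL/lpr+MSC 2, which also had the highest sums of neutrophil genes, 7.30 and 25.1 CPM. The part of blood left in the tissue was not tested.

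By length-corrected level, in FPKM as deposited (fragments scaled to gene length and library size), Selplg was the most abundant of the 8 genes, with a median of 6.66 FPKM over the 9 libraries (6.09 to 8.43). Vcam1 followed at 3.00 (2.59 to 5.01), and its range lay below that of Selplg. Itgb2 and Icam1 were next, with medians of 1.83 (1.46 to 4.51) and 1.66 (1.17 to 4.51) FPKM. Itga4 had a median of 1.30 (0.833 to 3.02) and Itgal one of 0.0910 (0.0228 to 1.23). Selp reached at most 0.0773 and Sele at most 0.0514 FPKM. Within libraries, Selplg was above Vcam1, Itga4 above Itgal and Itgal above Selp in 9 of 9. Vcam1 was above Itgb2 in 8, Itgb2 above Icam1 in 6, Icam1 above Itga4 in 7 and Selp above Sele in 4 of the 9 libraries, and the ranges of these neighbours overlapped. The selectins of the endothelium were the least abundant, while their leukocyte ligand Selplg led the list.

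**Figure D1:**
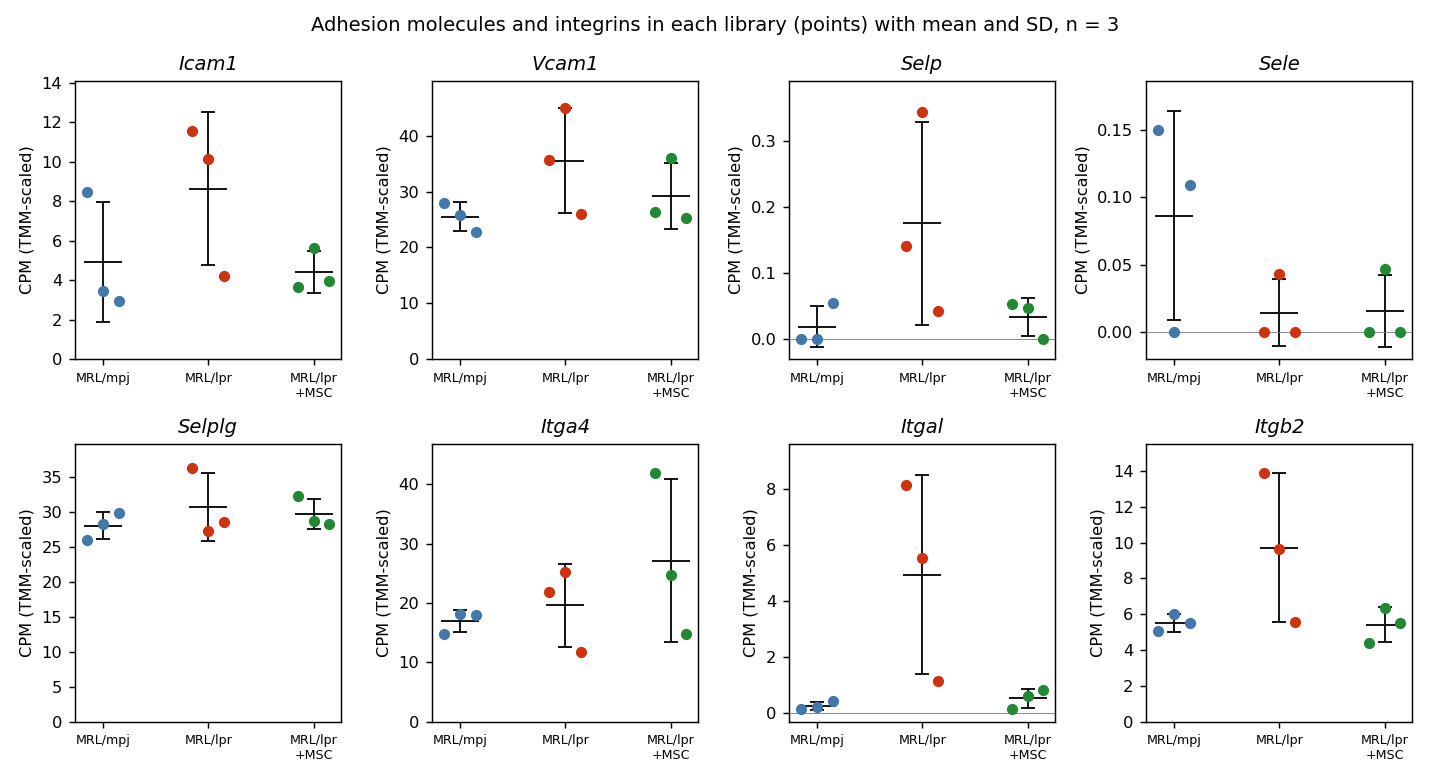
TMM-scaled CPM (y axis, each panel starting at or below 0) of the 8 genes in the 3 groups (x axis), with a point for each library and bars for mean and SD (n = 3). The MRL/lpr points of Itgal, at 1.14 to 8.15 CPM, lie above all MRL/mpj points, at 0.150 to 0.436, while the groups overlap for the 5 other genes that were tested.

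MRL/lpr against MRL/mpj mice asks whether the adhesion genes differ with the lpr genotype. A gene counts as differentially expressed when it changed 1.5-fold or more with an adjusted p below 0.05. None of the 8 genes met this rule by limma voom with Benjamini-Hochberg adjustment. Selp and Sele had too few counts to be tested. Each of the 6 others had a log2 fold change above 0, with a median of 0.60 beside 0.02 over all genes tested, and 1 of them, Itgal, had an unadjusted p under 0.05. Of all 16697 genes tested, 5.79% were differentially expressed, and 5081 had an unadjusted p under 0.05 by limma voom. limma-trend, another test added after the data were seen, called 1 of the 6, again Itgal. The libraries of the groups did not overlap for 1 of the 6 genes, and they did not overlap for 38% of all genes tested.

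Itgal, the alpha chain of LFA-1, moved furthest. It had 0.150, 0.215 and 0.436 CPM in MRL/mpj libraries 1 to 3, 8.15, 5.56 and 1.14 in MRL/lpr and 0.156, 0.604 and 0.841 in MRL/lpr+MSC. Every MRL/lpr library was above every library of both other groups, and MRL/lpr 3 was far closer to MRL/lpr+MSC 3 than to MRL/lpr 1. Counts were 3, 5 and 8 in MRL/mpj against 233, 129 and 27 in MRL/lpr libraries. The log2 fold change was 3.88 (standard error 1.32, 95% interval 0.72 to 7.05), with an unadjusted p of 0.0235 and an adjusted p of 0.109 by limma voom with Benjamini-Hochberg adjustment. Without MRL/lpr replicate 3 the log2 fold change was 4.70 and the gene passed (limma voom with Benjamini-Hochberg adjustment, adjusted p = 0.00575). Over the remaining settings the adjusted p ran from 0.0264, with library quality weights, to 0.592, in a test against a 1.5-fold change.

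Itgb2, the beta chain that pairs with Itgal in LFA-1 and with Itgam in the complement receptor CR3, had 5.05, 6.02 and 5.50 CPM in MRL/mpj libraries. It had 13.9, 9.66 and 5.58 CPM in MRL/lpr and 4.41, 6.37 and 5.49 in MRL/lpr+MSC libraries. MRL/lpr 1 and 2 were above every other library, and MRL/lpr 3 lay within the range of the MRL/mpj libraries. The log2 fold change against MRL/mpj was 0.75 (standard error 0.37, 95% interval -0.15 to 1.65; limma voom with Benjamini-Hochberg adjustment, adjusted p = 0.227). Without MRL/lpr replicate 3 it was 1.09 (limma voom with Benjamini-Hochberg adjustment, adjusted p = 0.0241) and without MRL/lpr replicate 1 it was 0.41 (adjusted p = 0.420 by the same test). No other setting brought the adjusted p below 0.0573.

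The alpha chains that share Itgb2 did not keep one ratio to it. Per length, Itgal amounted to 0.0138, 0.0166 and 0.0368 of the Itgb2 FPKM in MRL/mpj libraries, to 0.273, 0.268 and 0.0950 in MRL/lpr and to 0.0164, 0.0441 and 0.0712 in MRL/lpr+MSC. Itgam, the alpha chain of microglia and other myeloid cells, amounted to 1.07, 0.677 and 0.722 of Itgb2 in MRL/mpj, to 0.399, 0.418 and 0.727 in MRL/lpr and to 1.17, 0.785 and 0.720 in MRL/lpr+MSC. In MRL/lpr 1 and 2 the Itgal share was thus the highest of the 9 libraries and the Itgam share the lowest. Itgam itself averaged 7.38 CPM in the control and 7.49 CPM in MRL/lpr libraries, a log2 fold change of 0.04 (limma voom with Benjamini-Hochberg adjustment, adjusted p = 0.909).

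**Figure D2:**
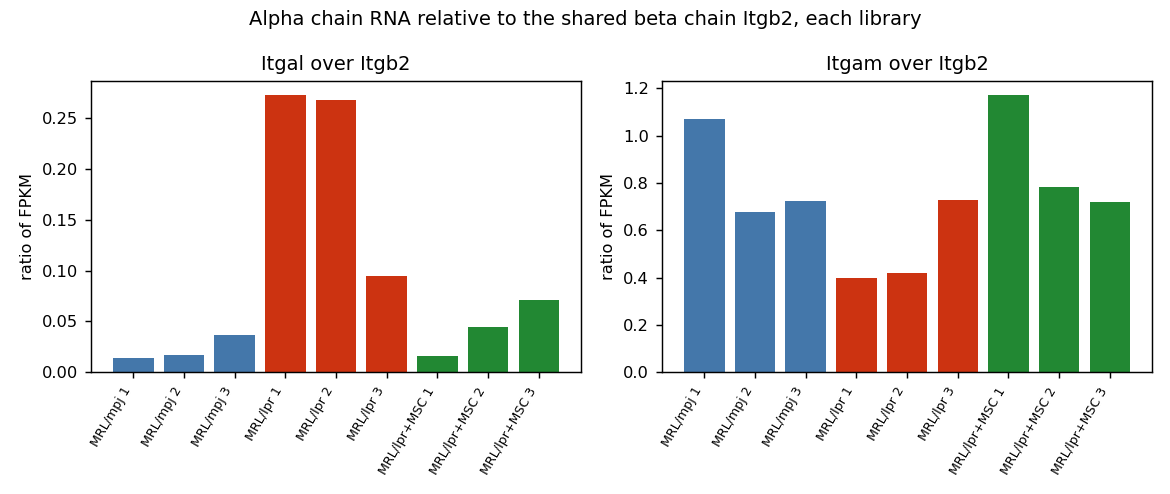
Ratio of the FPKM of Itgal (left) and Itgam (right) to that of their common partner Itgb2 (y axes from 0) in each library (x axis, coloured by group). Itgal over Itgb2 is highest in MRL/lpr 1 and 2, at 0.273 and 0.268, where Itgam over Itgb2 is lowest, at 0.399 and 0.418.

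Markers of T cells and B cells moved with these integrins, and so did some, but not all, monocyte markers. The summed level of 10 T cell genes was 2.15 to 2.70 CPM in the MRL/mpj libraries, 8.08 to 27.1 in MRL/lpr and 3.01 to 5.75 in MRL/lpr+MSC libraries, and within MRL/lpr it was highest in library 1 and lowest in library 3, as Itgal was. Cd3g and Cd8b1 were at 0 in all MRL/mpj libraries, and 6 of the 9 T cell genes tested were differentially expressed, all higher in MRL/lpr. The 7 B cell genes summed to 1.03 to 1.65 CPM in the MRL/mpj libraries, 3.43 to 7.24 in MRL/lpr and 0.675 to 2.17 in MRL/lpr+MSC. The 6 NK cell genes summed to 0.200 to 0.272, 1.40 to 5.56 and 0.186 to 1.15 CPM. Only 1 of these 6, Nkg7, had enough counts to be tested. Klrb1c averaged lower in MRL/lpr, at 0.0260 CPM against 0.0825 in MRL/mpj, while the others averaged higher. Of the 5 monocyte genes tested, 4 lay above 0 and 3 had an unadjusted p under 0.05, the median being 2.5 on the log2 scale, and none passed by limma voom with Benjamini-Hochberg adjustment. Among them Ccr2, the receptor that draws monocytes from blood, averaged 0.182 CPM in the control and 3.70 in MRL/lpr libraries. Ly6c2 averaged 0.267 and 4.04. Of the same list, Vcan averaged 31.2 and 24.6 CPM and Chil3 0.453 and 0.0521, while the others averaged higher in MRL/lpr. The sum of the monocyte list, which Vcan dominates, was 32.4 to 32.7 CPM in MRL/mpj and 25.4 to 49.5 in MRL/lpr. The 8 neutrophil genes summed to 2.18 to 7.30 CPM in MRL/mpj, 2.33 to 2.59 in MRL/lpr and 0.571 to 25.1 in MRL/lpr+MSC, where library 2 was the highest, and Ly6g was counted at 0 in all 9 libraries. The 10 microglia genes, by contrast, summed to 360 to 389 CPM in the MRL/mpj libraries, 295 to 374 in MRL/lpr and 293 to 333 in MRL/lpr+MSC, so Itgb2 amounted to 1.30% to 1.62%, 1.90% to 3.72% and 1.42% to 1.91% of them. The part of these cells in the levels of Itgal and Itgb2 was not tested. In bulk tissue, more cells of a type and more RNA per cell cannot be told apart.

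**Figure D3:**
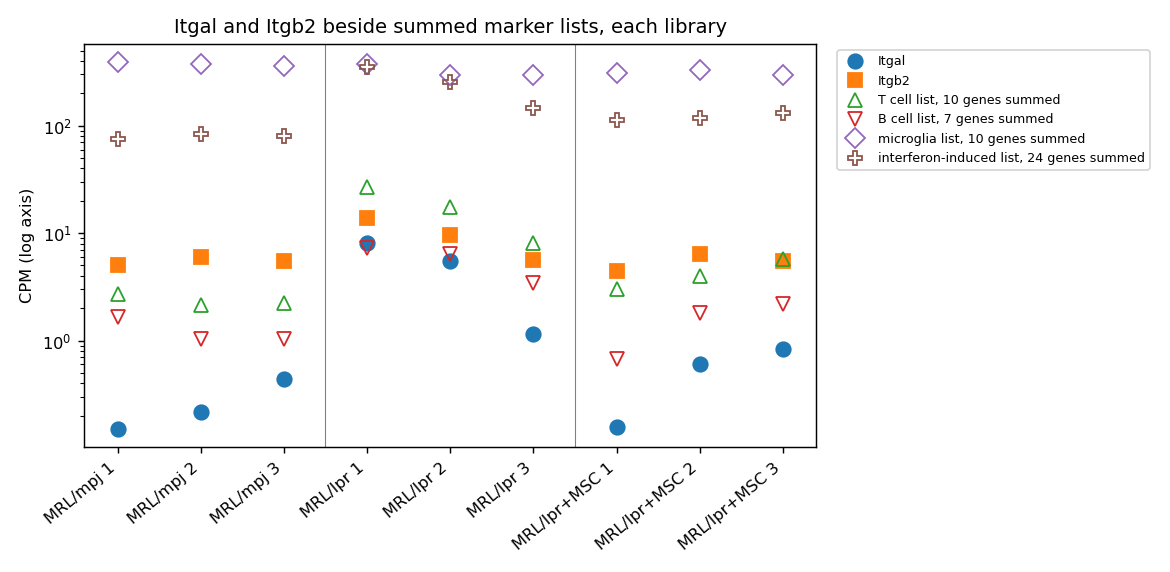
CPM on a log axis of Itgal and Itgb2 (filled) and of 4 summed gene lists (open) in each of the 9 libraries (x axis). Itgal, at 0.150 to 8.15 CPM, and the T cell sum, at 2.15 to 27.1, are both highest in MRL/lpr 1 and 2, while the microglia sum stays between 293 and 389.

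Over the 9 libraries, the genes most like Itgal in log2 CPM among the 14904 genes compared were Cxcl9 (Pearson r = 0.991), an interferon gamma-induced chemokine that attracts T cells, Ptprc (0.988), which encodes the pan-leukocyte antigen CD45, and Parp14 (0.978). Those most like Itgb2 were Unc93b1 (0.965), which carries nucleic acid-sensing Toll-like receptors to endosomes, Syk (0.960), a kinase of immune receptors, and Gsdmd (0.959), the pore protein of pyroptosis. Between Itgal and Itgb2 r was 0.909. These values describe 9 libraries that share groups and depth and carry no test.

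The ligands of the endothelium were less far apart. Icam1, which binds LFA-1, had 8.44, 3.44 and 2.94 CPM in the MRL/mpj libraries, 11.5, 10.1 and 4.23 in MRL/lpr and 3.63, 5.62 and 3.94 in MRL/lpr+MSC libraries. MRL/lpr 1 and 2 were the highest of all, but MRL/mpj 1 was above MRL/lpr 3. Against MRL/mpj its log2 fold change was 0.87 (standard error 0.54, 95% interval -0.43 to 2.18; limma voom with Benjamini-Hochberg adjustment, adjusted p = 0.322). Leaving out a library moved it between 0.57, without MRL/lpr replicate 1, and 1.33, without MRL/mpj replicate 1, and the gene passed in none of these fits (limma voom with Benjamini-Hochberg adjustment, lowest adjusted p = 0.0710, without MRL/lpr replicate 3). MRL/mpj 1 also had the highest summed level of 6 border macrophage genes, 29.7 CPM against 17.6 and 13.9 in the other MRL/mpj libraries, and the part of these cells was not tested.

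Vcam1, the ligand of VLA-4, had 28.0, 25.8 and 22.8 CPM in the MRL/mpj libraries, 35.7, 45.0 and 26.1 in MRL/lpr and 26.4, 36.0 and 25.3 in MRL/lpr+MSC libraries. The highest 3 values were those of MRL/lpr 2, MRL/lpr+MSC 2 and MRL/lpr 1, and MRL/lpr 3 lay within the MRL/mpj range. For MRL/lpr against MRL/mpj the log2 fold change was 0.45 (standard error 0.21, 95% interval -0.05 to 0.95; limma voom with Benjamini-Hochberg adjustment, adjusted p = 0.199). It was 0.65 without MRL/lpr replicate 3, where the gene passed (limma voom with Benjamini-Hochberg adjustment, adjusted p = 0.0290), and 0.27 without MRL/lpr replicate 2. MRL/lpr 2 and MRL/lpr+MSC 2, the top Vcam1 libraries, also had the highest choroid plexus sums, 9695 and 4878 CPM against 104 to 1091 elsewhere, and the highest sums of 8 meningeal fibroblast genes, 803 and 498 against 98.4 to 331. Their part in the Vcam1 level was not tested. The 12 endothelium genes summed to 571 to 708 CPM over the 9 libraries, with overlapping groups although 2 of the 12, Cldn5 and Kdr, were differentially expressed and higher in MRL/lpr, and Icam1 and Vcam1 amounted to 0.479% to 1.91% and 3.70% to 7.11% of that sum.

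The genes most like Vcam1 over the 9 libraries were Piezo1 (r = 0.972), a mechanically gated channel, Tor3a (0.971) and Msx1 (0.969), a homeobox gene. Those most like Icam1 were Gm37397 (0.972), Shmt1 (0.963), an enzyme of folate metabolism, and Shc1 (0.947), a signalling adaptor. Icam1 and Vcam1 had an r of 0.817 with each other and of 0.667 and 0.701 with Itgal.

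Selp and Sele were the scarcest of the 8 genes. Selp had 0, 0 and 1 counts in MRL/mpj, 4, 8 and 1 in MRL/lpr and 1, 1 and 0 in MRL/lpr+MSC libraries, so only MRL/lpr 1 and 2 exceeded 3 counts. Summed over a group, 13 counts in MRL/lpr against 1 in MRL/mpj gave a ratio of 10.6 after scaling, with a 95% counting interval of 1.60 to 451.5 that does not cover the spread between libraries. Gm16587, which overlaps Selp on the other strand, had 4 counts in MRL/lpr 1 and 0 elsewhere. Sele had 3, 0 and 2 counts in MRL/mpj, 0, 1 and 0 in MRL/lpr and 0, 1 and 0 in MRL/lpr+MSC libraries, and no difference was detectable at this depth.

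Selplg, the ligand of the selectins, had 26.1, 28.3 and 29.96 CPM in the MRL/mpj libraries, 36.4, 27.3 and 28.5 in MRL/lpr and 32.3, 28.8 and 28.3 in MRL/lpr+MSC libraries. Only MRL/lpr 1 and MRL/lpr+MSC 1 stood above the MRL/mpj range. The log2 fold change of MRL/lpr against MRL/mpj was 0.13 (standard error 0.13; limma voom with Benjamini-Hochberg adjustment, adjusted p = 0.518), and its 95% interval of -0.17 to 0.44 lies inside a 1.5-fold change in either direction. Without MRL/lpr replicate 1 it was -0.0026. The most similar genes were Kif4 (r = 0.906), Rcbtb1 (0.905) and Insm1 (0.902), and for each of the 5 other genes the closest gene had a higher r.

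Itga4, the alpha chain of VLA-4, had 14.8, 18.2 and 18.0 CPM in the MRL/mpj libraries, 21.9, 25.1 and 11.7 in MRL/lpr and 41.8, 24.8 and 14.7 in MRL/lpr+MSC libraries. MRL/lpr+MSC 1 was the highest of all and MRL/lpr 3 the lowest, so both groups of MRL/lpr mice spread to both sides of the controls. The log2 fold change of MRL/lpr against MRL/mpj was 0.15 (standard error 0.30, 95% interval -0.57 to 0.86; limma voom with Benjamini-Hochberg adjustment, adjusted p = 0.770), and it was -0.05 without MRL/lpr replicate 2 and 0.46 without MRL/lpr replicate 3. Itga4 did not follow the lymphocyte markers, with an r of -0.0015 to Itgal and 0.0256 to the T cell sum over the 9 libraries. MRL/lpr+MSC 1, where it was highest, had a T cell sum of 3.01 CPM. Cerkl, the gene on the opposite strand, had 1.51 CPM there, within its range of 0.804 to 3.38 over the libraries. Arap3 (r = 0.963), Lrrc57 (0.954) and Gmfb (0.952) were the genes most like Itga4.

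**Figure D4:**
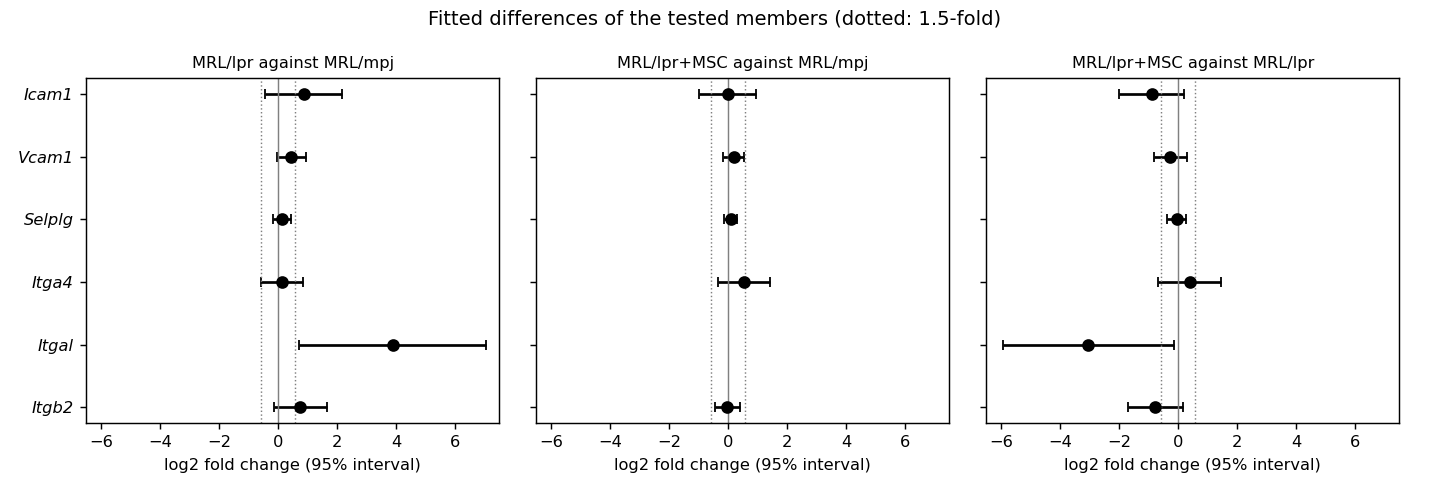
Fitted log2 fold change (x axis, point) and its 95% interval (bar) of the genes tested (y axis) in the 3 comparisons, with dotted lines at a 1.5-fold change. The interval of Itgal, 0.72 to 7.05 in MRL/lpr against MRL/mpj, is the widest in that comparison, and that of Selplg, -0.17 to 0.44, is the narrowest.

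In MRL/lpr+MSC against MRL/mpj mice, 0 of 5 genes tested were differentially expressed by limma voom with Benjamini-Hochberg adjustment, where 3.43% of all 16196 genes tested were. None had an unadjusted p under 0.05 by limma voom, while 3710 of all genes tested did. limma-trend called 0, and the groups overlapped for all 5, while they did not overlap for 29.6% of all genes. Itga4 had the largest log2 fold change, 0.53 (95% interval -0.36 to 1.41), which was 0.17 without MRL/lpr+MSC replicate 1. Vcam1 had 0.19 (-0.18 to 0.55), Selplg 0.09 (-0.13 to 0.30), Itgb2 -0.03 (-0.45 to 0.39) and Icam1 -0.02 (-0.97 to 0.94). The intervals of Vcam1, Selplg and Itgb2 stay within a 1.5-fold change, and those of Itga4 and Icam1 do not. Itgal had too few counts in these 6 libraries to be tested.

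MRL/lpr+MSC against MRL/lpr mice asks whether the genes differ with the stem cell treatment. It shares the MRL/lpr libraries with the first comparison. Of 16758 genes tested, 0% were differentially expressed, and so 0 of the 6 genes tested here were (limma voom with Benjamini-Hochberg adjustment), with 1 of 6 at an unadjusted p under 0.05 and 0 called by limma-trend. Over all genes, 647 had an unadjusted p under 0.05. The log2 fold change of Itgal was -3.04 (standard error 1.20, 95% interval -5.93 to -0.14, unadjusted p = 0.0424; limma voom with Benjamini-Hochberg adjustment, adjusted p = 0.921). Itgal was also the 1 gene of 6 whose groups did not overlap, and 9.99% of all genes did not overlap. Icam1 had -0.89 (95% interval -1.99 to 0.21), Itgb2 -0.78 (-1.71 to 0.15), Vcam1 -0.26 (-0.81 to 0.29), Selplg -0.04 (-0.36 to 0.27) and Itga4 0.39 (-0.68 to 1.45).

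Beside the 8 genes, 54 other genes of leukocyte adhesion were listed in 5 groups. Between MRL/lpr and MRL/mpj mice 4 of the 49 with enough counts passed, with 3 higher and 1 lower, and their share of 8.16% is near the 5.79% of all genes tested. This count was 0 without any 1 of the MRL/mpj libraries, 2 without MRL/lpr replicate 1 and 12 without MRL/lpr replicate 3. Over all genes, 967 passed in the main fit, and 165 to 260, 421 and 1510 passed in these fits. The 49 adhesion genes had a median log2 fold change of 0.14. The 14 leukocyte receptors tested had a median of 1.54 (the same with Cd2 at its counting bound), with positive values in 13. An unadjusted p under 0.05 by limma voom was found for 9 of them, beside 5081 of all 16697 genes, and 2 were differentially expressed. Cd2, a T cell and NK cell receptor, had 0 counts in each MRL/mpj library and 50, 26 and 11 in MRL/lpr, at least 23.7-fold higher against a floor of 3 counts over the group (limma voom with Benjamini-Hochberg adjustment, adjusted p = 0.0103). Itga2, the alpha chain of a collagen receptor, rose from 0.2998, 0.215 and 0.218 to 1.37, 1.64 and 0.719 CPM (log2 fold change 2.18; limma voom with Benjamini-Hochberg adjustment, adjusted p = 0.0380). The abundant chains Itgb1, the beta partner of Itga4, and Itgav had log2 fold changes of 0.18 and 0.28 and did not pass.

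Of 13 integrin activation genes, Cytip, which encodes a leukocyte regulator of the integrin-activating cytohesins, rose from 0.200, 0 and 0.218 CPM to 2.35, 2.03 and 1.61 (log2 fold change 4.25; limma voom with Benjamini-Hochberg adjustment, adjusted p = 0.0253). The abundant Cyth1 and Fermt2 had log2 fold changes of -0.08 and 0.11, and the list's median was 0.11. Of 14 endothelial partners tested, 1 was differentially expressed. Cd34, a sialomucin of endothelium that can carry L-selectin ligands, fell from 37.0, 41.3 and 39.0 CPM to 27.1, 20.1 and 22.0, with no overlap (log2 fold change -0.76; limma voom with Benjamini-Hochberg adjustment, adjusted p = 0.0176). The most abundant partners, Alcam and Cd99l2, had 0.10 and 0.17, and the list's median was 0.10. Among 7 selectin ligand enzymes tested none passed by limma voom, 2 had an unadjusted p under 0.05, and the abundant sulfotransferases Tpst1 and Tpst2 had log2 fold changes of 0.09 and -0.41. Icam5, the neuronal ICAM, had 188, 183 and 179 CPM in the MRL/mpj libraries, 125, 158 and 113 in MRL/lpr and 151, 139 and 123 in MRL/lpr+MSC libraries. It was lower in every library of both groups of MRL/lpr mice than in the controls. The log2 fold change was -0.48 in MRL/lpr (limma voom with Benjamini-Hochberg adjustment, adjusted p = 0.0551). In MRL/lpr+MSC it was -0.41 (adjusted p = 0.0451 by the same test), which is under 1.5-fold. The 8 hippocampal neuron genes had median log2 fold changes of -0.50 and -0.49 in these comparisons. Their part in the Icam5 level was not tested.

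**Figure D5:**
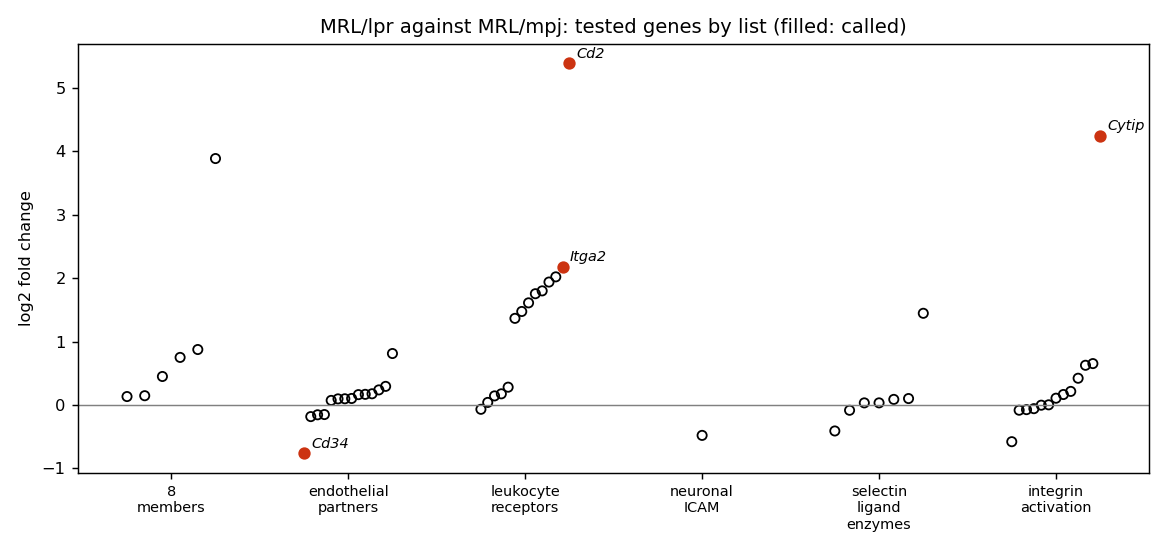
Log2 fold change of MRL/lpr against MRL/mpj (y axis) of each gene tested, by list (x axis), sorted within a list, with differentially expressed genes filled and named. Of the 14 leukocyte receptors, 13 lie above 0, and Cd2, Itga2 and Cytip are the genes that passed upwards, while Cd34 passed downwards.

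In MRL/lpr+MSC against MRL/mpj mice 0 of 42 of these genes were differentially expressed and 8 had an unadjusted p under 0.05 (limma voom, with 0 called by limma-trend as well). Of 48 tested in MRL/lpr+MSC against MRL/lpr mice 0 were, with 8 at an unadjusted p under 0.05 and 0 called by limma-trend. Over all genes tested in these comparisons, 3710 of 16196 and 647 of 16758 had an unadjusted p under 0.05 by limma voom.

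The inducers of the endothelial ligands were read from 3 further lists. Of 10 NF-kB target genes tested, 0 were differentially expressed in MRL/lpr against MRL/mpj mice by limma voom, with a median log2 fold change of 0.35. An unadjusted p under 0.05 by limma voom was found for 2 of the 10, beside 5081 of all 16697 genes tested. Of 7 adhesion-inducing cytokine genes only 3 had enough counts to be tested, and none passed in this comparison, with 2 at an unadjusted p under 0.05. Against MRL/mpj, MRL/lpr+MSC mice had 1 of 3 that passed, Lta, which encodes lymphotoxin alpha and is named after its values were seen, at a log2 fold change of -1.85 (limma voom with Benjamini-Hochberg adjustment, adjusted p = 0.0469). Lta averaged 0.832 CPM in MRL/mpj, 0.283 in MRL/lpr and 0.217 in MRL/lpr+MSC libraries, from 52, 21 and 14 counts summed over each group. Ifng, which encodes interferon gamma, was at 0 in all MRL/mpj libraries. Of 23 interferon-induced genes, 9 were differentially expressed in MRL/lpr against MRL/mpj mice, all higher, with a median of 2.05. Ifi44 (2.74), Ifit1 (2.05) and Gbp3 (2.05) rose most among those of at least 1 CPM, followed by Isg15 (1.72). Between MRL/lpr+MSC and MRL/mpj mice 6 of 20 were differentially expressed, all higher, with 19 above 0 and a median of 0.96. In that comparison Icam1 and Vcam1 had -0.02 and 0.19. The part of these inducers in the levels of Icam1 and Vcam1 was not tested.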

How the data were processed

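Poly-A RNA of 9 hippocampal libraries had been sequenced. According to the paper's methods, the authors aligned reads to mm10 with STAR and counted them per gene with HTSeq, whereas the labels' processing notes name TopHat2. The deposited matrix holds these raw counts, and the deposited FPKM tables (28008 genes) hold the authors' counts divided by gene length and library size. Every value column belonged to a sample, with 0 left over. Symbols came from GENCODE (GRCm38) for 47224 of 47643 genes. The 9 FPKM tables each followed their own column best over 10950 genes.

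Counts were scaled by TMM (trims of 30% and 5%). Genes with a CPM worth 10 counts in a median library in at least 3 libraries and a total of at least 15 were tested by limma voom (limma 3.58.1, R 4.3.3) with robust moderation, adjusting p-values by Benjamini-Hochberg across every gene tested, for each comparison on its own 6 libraries. Intervals are 95% intervals of that fit. The test was tried on simulated counts with the same spread for all genes and changes only in well-counted genes. That trial does not cover genes of few counts, such as Itgal in MRL/mpj libraries. The plan named a quasi-likelihood count test, with limma voom in its place if the matrix was not accepted as a count table. The matrix, with its columns split by bars, was not accepted, and limma voom was run on the same counts. Likeness is Pearson's r of log2(CPM + 0.1) over the 9 libraries among genes of at least 1 CPM.

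The 8 genes and all lists were chosen with earlier results of these data known. Of the wider adhesion lists, genes that passed in any comparison and the 2 most abundant of each list are named. Of the inducer lists, at most 4 that passed and had a mean of at least 1 CPM are named, by size of change. The cytokine genes, and interferon-induced genes that did not pass, are named beside this rule after their values were seen. The paper describes the MRL/mpj and MRL/lpr libraries as single mice. For MRL/lpr+MSC the sources used here do not say so, and p-values there measure the spread between libraries, which may be technical. Same-numbered libraries deviated together with correlations of -0.21 to 0.45, so numbers were not taken as pairs. Alternatives were other scaling, filters, samples and tests, a replicate block and each library left out. The values of some items are not reported here.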

Additional observations from a re-analysis of the deposited data

How the results depend on the processing

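Between MRL/lpr and MRL/mpj libraries, 0 of the 6 genes tested passed, and this became 1 (Itgal) with the replicate block, with limma-trend and with library quality weights, the last 2 chosen after seeing the data. Leaving out a library gave 0 to 3, with 3 (Itgal, Itgb2 and Vcam1) without MRL/lpr replicate 3. For both other comparisons the count was 0 in every setting run. Of the wider adhesion genes, 4 became 2 when at least 1 CPM in 3 libraries was asked for and 1 in a test against a 1.5-fold change. The count was 11 with the replicate block, 8 with limma-trend and 12 with library quality weights. Over all genes, 967 became 858, 104, 1333, 1323 and 2065 in these settings. For the wider adhesion genes, leaving out a library gave 0 to 12. This was 0 without any 1 of the MRL/mpj libraries, 2 without MRL/lpr replicate 1 and 12 without MRL/lpr replicate 3. Over all genes these fits gave 165 to 260, 421 and 1510. Between MRL/lpr+MSC and MRL/mpj libraries the wider adhesion count of 0 became 1 with no filter on low counts. Leaving out a library gave 0 to 1 there, with 1 without MRL/lpr+MSC replicate 1. Over all genes, 556 became 623 with no filter and 1514 without that replicate. The causes were not tested.

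The sign turned for 5 fitted values whose 95% intervals held 0. Leaving out a library moved the log2 fold change between MRL/lpr and MRL/mpj from -0.0026 to 0.21 for Selplg and from -0.047 to 0.46 for Itga4. Between MRL/lpr+MSC and MRL/mpj it moved Icam1 from -0.27 to 0.43 and Itgb2 from -0.17 to 0.096, and library quality weights gave 0.029 and 0.057. Between MRL/lpr+MSC and MRL/lpr it moved Selplg from -0.13 to 0.091. The replicate block changed no other call on the 8 genes. The planned DESeq2 test and the quasi-likelihood test were not run. Depth limits Sele, with at most 3 counts in any library, and leaves Selp with 8 at most.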
